A study of Homo sapiens with 60 samples.

Results

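The transcripts of 9 genes that encode amino acid carriers were followed across every extract and dose: SLC7A5, SLC3A2, SLC6A9, SLC38A4, SLC38A2, SLC1A4, SLC1A5, SLC7A1 and SLC43A1. They were chosen by name, with earlier results of these data known, and belong to several solute carrier families. All 9 were found among the 60675 Ensembl gene identifiers of the count table by matching symbols to identifiers. RNA-seq was done on HT29, a human colorectal adenocarcinoma line, 24 h after the addition of herbal extracts used as tonics or of the solvent, dimethyl sulfoxide (DMSO). The labels and the series text give different DMSO percentages for this vehicle.

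The water extracts were the decoctions Palmul-tang and Sibjeondaebo-tang, at 500, 100 and 20 µg/mL for the high, medium and low dose. The ethanol extracts were Poria Cocos, Atractylodis Rhizoma (Atractylodes) and Panax Ginseng (Ginseng) at 500, 100 and 20 µg/mL, Glycyrrhizae Radix (Glycyrrhiza, licorice root) at 350, 70 and 14 µg/mL, and Angelicae Gigantis Radix (Angelica) at 320, 64 and 12.8 µg/mL. The series text sets the high dose at an extract's IC20 (a concentration of partial inhibition) wherever that lay under 500 µg/mL, so the Glycyrrhiza and Angelica doses differ from the rest. Each dose of an extract had 3 libraries, as did the vehicle, except Angelica, which had 1 library per dose and is described without a test. All 60 libraries, vehicle included, are titled batch C. The sample codes in the labels begin with 8 for both decoctions, 9 for Poria and Atractylodes, 10 for Glycyrrhiza and Ginseng, and 11 for Angelica; libraries that share this number are called a set here, though the labels do not say what it stands for. The vehicle codes carry no such number, so a difference from vehicle cannot be told apart from a difference between sets. Whether the libraries of a group stem from different cultures is not stated; a p-value here reflects library-to-library spread, which may be technical.

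Amino acid carriers of the solute carrier families move their substrates across the plasma membrane by exchange, by coupling to sodium or by facilitated diffusion. Several of these genes are known targets of ATF4, the transcription factor made when amino acid shortage or other stress slows translation initiation through phosphorylation of eIF2. Tumour cells of the gut commonly carry the exchangers at a high level to supply leucine and glutamine.

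The 60 libraries held 19.3 to 29.6 M (mega) estimated reads each, with a median of 25.1 M. Levels are given as CPM, read counts scaled to the TMM-adjusted library size, or to the plain library total for the cell type markers. The markers were read in the 57 libraries other than Angelica. Of the 10 colonic epithelial markers, KRT8, KRT18 and EPCAM were at 486 CPM or more in all of these. CDX1, CDX2, CDH17 and GPA33 stayed at 6.27 CPM or less. Among 11 markers of other cell types, 8 stayed at or below 5 counts in all of these libraries. The summed level of the 11 ran from 8.97 to 9.31 CPM at the low and from 11.7 to 12.4 CPM at the high Glycyrrhiza dose. It was 9.86 to 12.5 CPM with vehicle, 9.82 to 12.8 at the medium Glycyrrhiza and 10.4 to 12.8 at the high Ginseng dose. CD68 was the marker of that set called higher at the high than at the low Glycyrrhiza dose (log2 fold change 0.60, SE 0.15, edgeR adjusted p = 0.00222). COL1A1 was not called (0.42, SE 0.21, edgeR adjusted p = 0.155), though its libraries did not overlap, as for 19.6 percent of all genes. The part of CD68 in the results below was not tested. In cultures measured in bulk, fewer expressing cells and less RNA per cell cannot be told apart.

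Promoter windows of 250 bases before to 50 bases after each RefSeq start (GRCh38.p14) were on hand for all 9 genes, in 15 windows. They are shown because the genes rose together with one extract, as described next. In all, 8 strings were searched on both strands, 6 of them overlapping forms of a C/EBP-ATF composite element, and the ones reported here were picked after the matches had been seen. TGATGNAA, a form of that composite element, was found in windows of 4 of the 9 genes (SLC1A4, SLC1A5, SLC3A2 and SLC7A1), against 4.46 percent of all 27305 genes. The E-box CACGTG was found in 3 genes (SLC1A5, SLC43A1 and SLC7A5), against 8.77 percent. A share by gene depends on how many windows a gene has. By window, 3.62 percent of all 35116 held TGATGNAA and 7.26 percent the E-box. Of the 15 windows of the 9 genes, each of the 4 and each of the 3 genes had its match in 1. The longer string ATTGCATCA was found in none of the 9, against 0.293 percent of all genes, and the antioxidant response element core in 1, SLC1A5, against 3.94 percent. A match describes letters in a window and is no evidence that a factor binds there. The stretches below are written 5′ to 3′ on the gene's strand, and the capitals mark the match.
SLC1A4 (chr2:64989299-64989406, plus strand): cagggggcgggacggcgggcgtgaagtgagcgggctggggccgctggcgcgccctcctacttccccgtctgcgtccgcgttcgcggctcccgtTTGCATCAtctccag
SLC7A1 (chr13:29595669-29595788, minus strand): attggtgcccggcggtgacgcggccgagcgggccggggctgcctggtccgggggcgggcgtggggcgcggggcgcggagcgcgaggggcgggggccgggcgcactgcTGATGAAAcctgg
SLC1A5 (chr19:46784815-46784964, minus strand): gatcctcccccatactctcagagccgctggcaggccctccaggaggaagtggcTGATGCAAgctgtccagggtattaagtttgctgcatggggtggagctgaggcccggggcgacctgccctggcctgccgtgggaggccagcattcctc
SLC3A2 (chr11:62881725-62881748, plus strand): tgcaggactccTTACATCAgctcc
SLC7A5 (chr16:87869508-87869697, minus strand): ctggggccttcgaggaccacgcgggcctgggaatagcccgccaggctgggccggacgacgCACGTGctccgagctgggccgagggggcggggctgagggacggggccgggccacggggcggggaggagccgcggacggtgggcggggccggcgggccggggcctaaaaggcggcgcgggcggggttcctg
The SLC1A4 match, in only 1 of its windows, ended on the start base, and the SLC7A1 match lay at positions 8 to 15. The SLC1A5 match lay at positions -97 to -90 from the start in 1 of its 3 windows. The SLC3A2 match lay at positions 38 to 45, counting the start as 1, in 1 of its 3 windows. None of these matches of SLC1A4, SLC1A5 and SLC3A2 lay in the window nearest the gene's 5′ end.

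At the high Glycyrrhiza dose all 9 transporter transcripts were higher than at the low dose, from 1.28-fold for SLC43A1 to 11.3-fold for SLC6A9. For each of the 9, the lowest of the 3 high-dose libraries lay above all 57 other libraries, Angelica included, which was so for 6.97 percent of the 16445 genes tested; 19.6 percent of these had high-dose libraries all above the low-dose ones. By edgeR's quasi-likelihood test with Benjamini-Hochberg adjustment over all genes tested, called at an adjusted p below 0.05, 14 percent of all genes were called higher in this comparison. The median log2 fold change of the 9 was 0.91, beside -0.01 over all genes. The plot of every library shows the separation gene by gene.

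**Figure D1:**
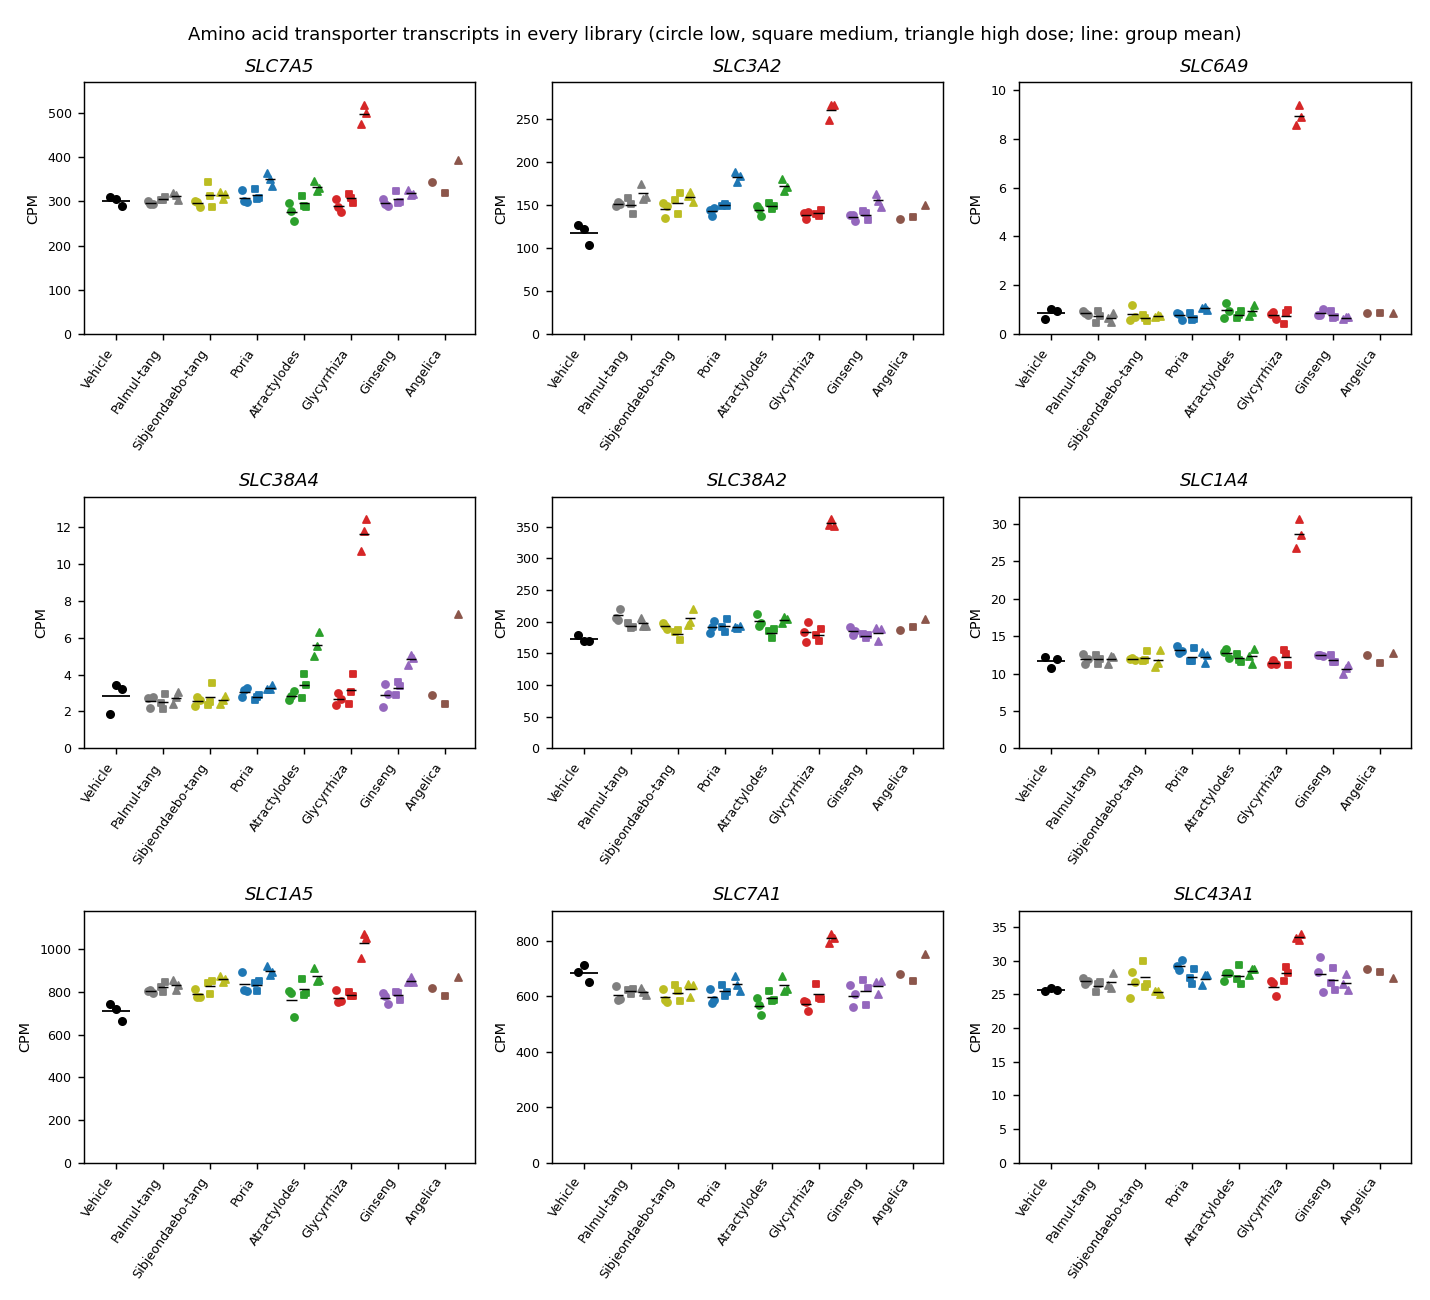
Each panel plots one gene's CPM in all 60 libraries by extract, with circles, squares and triangles for the low, medium and high dose and a line at the group mean. The Glycyrrhiza high-dose triangles stand above all other points in each panel, by the widest ratio in SLC6A9.

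SLC7A5 and SLC3A2 encode the light and heavy chains of the heterodimeric exchanger LAT1-4F2hc, which imports large neutral amino acids such as leucine. SLC7A5 (ENSG00000103257, chr16:87830023-87869488, minus strand, GRCh38) was at 474, 517 and 499 CPM at the high and 306, 287 and 276 CPM at the low Glycyrrhiza dose. The groups were separate, and the log2 fold change was 0.78 (SE 0.05, edgeR adjusted p = 8.18e-18). SLC3A2 (ENSG00000168003, chr11:62856102-62888875, plus strand) was at 249, 266 and 266 CPM against 140, 134 and 142 CPM, also without overlap. Its log2 fold change was 0.91 (SE 0.06, edgeR adjusted p = 3.20e-18). Per kilobase of exon, SLC7A5 exceeded SLC3A2 in every group, by a ratio of 2.82 ± 0.22 (SD, n = 3) with vehicle, 2.28 ± 0.14 at the low and 2.08 ± 0.04 at the high Glycyrrhiza dose. The group means of the other tested extracts lay between 2.09 and 2.41, and no test was made on this ratio.

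SLC6A9 and SLC38A4 were the lowest expressed members and changed by the largest fold. SLC6A9 (ENSG00000196517, chr1:43991500-44031467, minus strand) encodes the sodium- and chloride-coupled glycine transporter GLYT1. Its transcripts were at 8.55, 9.38 and 8.88 CPM at the high and 0.833, 0.908 and 0.633 CPM at the low Glycyrrhiza dose, a log2 fold change of 3.50 (SE 0.23, edgeR adjusted p = 4.45e-18). Outside the high Glycyrrhiza dose no library passed 1.27 CPM, and over all libraries the gene had 10 to 208 reads. SLC6A9 shares 404 exon bases with CCDC24 on the opposite strand, and the sources used here do not give the strand setting of the counting. CCDC24 was at 3.20 CPM at the high and 2.94 CPM at the low dose (log2 fold change 0.11, SE 0.15, edgeR adjusted p = 0.68).

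SLC38A4 (ENSG00000139209, chr12:46764761-46832408, minus strand) encodes SNAT4, a sodium-coupled carrier of neutral and some cationic amino acids. It was at 10.7, 11.8 and 12.4 CPM at the high and 2.35, 2.98 and 2.69 CPM at the low Glycyrrhiza dose (log2 fold change 2.13, SE 0.16, edgeR adjusted p = 8.69e-16). SLC38A2 (ENSG00000134294, chr12:46358189-46372867, minus strand), its neighbour on chromosome 12, encodes the system A carrier SNAT2, which takes up small neutral amino acids with sodium. It was at 352, 361 and 352 CPM against 184, 167 and 200 CPM, a log2 fold change of 0.95 (SE 0.05, edgeR adjusted p = 4.61e-20). Both genes had separate groups, at levels that differed widely: 2.81 against 53.8 CPM per kilobase of exon at the high dose.

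SLC1A4 and SLC1A5 encode ASCT1 and ASCT2, sodium-dependent exchangers of small neutral amino acids, ASCT2 being a main route of glutamine entry in tumour cells. SLC1A4 (ENSG00000115902, chr2:64988477-65023865, plus strand) was at 26.7, 30.6 and 28.6 CPM at the high and 11.3, 11.8 and 11.2 CPM at the low Glycyrrhiza dose. Its log2 fold change was 1.32 (SE 0.07, edgeR adjusted p = 4.07e-21). SLC1A5 (ENSG00000105281, chr19:46774883-46788594, minus strand) was at 960, 1073 and 1055 CPM against 810, 753 and 757 CPM (log2 fold change 0.41, SE 0.05, edgeR adjusted p = 9.48e-10). The groups of both genes were separate, and per kilobase of exon SLC1A5 had the highest level of the 9 with vehicle (213 CPM per kilobase) and at the high Glycyrrhiza dose (309 CPM per kilobase). SLC1A5 shares 780 exon bases with the antisense gene AC008622.2, which was at 4.10 and 2.71 CPM at the high and low dose.

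SLC7A1 (ENSG00000139514, chr13:29509410-29595688, minus strand) encodes CAT1, the carrier of arginine and lysine. It was at 791, 825 and 811 CPM at the high and 584, 581 and 548 CPM at the low Glycyrrhiza dose, a log2 fold change of 0.50 (SE 0.05, edgeR adjusted p = 2.81e-11). SLC43A1 (ENSG00000149150, chr11:57484534-57515786, minus strand) encodes LAT3, a facilitated carrier of branched-chain and other large neutral amino acids. It was at 33.4, 33.0 and 34.0 CPM against 26.9, 26.7 and 24.7 CPM, the smallest change of the 9 (log2 fold change 0.36, SE 0.05, edgeR adjusted p = 7.90e-07). Neither gene's groups overlapped.

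At the medium Glycyrrhiza dose, 70 µg/mL, none of the 9 was called higher or lower than at the low dose by edgeR, where 0 percent of all genes were called. None had an unadjusted p below 0.05, against 6.35 percent of all genes. The libraries of 2 genes did not overlap, higher at the medium dose, against 6.37 percent of all genes: SLC7A1 at 590 to 643 against 548 to 584 CPM and SLC43A1 at 27.0 to 29.1 against 24.7 to 26.9 CPM. The log2 differences ran from -0.06 for SLC6A9 to 0.25 for SLC38A4, whose 95 percent interval reached from -0.11 to 0.61. With the other 5 extracts the medium dose also gave 0 calls among the 9, by edgeR and by DESeq2. At an unadjusted p below 0.05 there was 1 gene with Palmul-tang (3.06 percent of all genes), 2 with Atractylodes (5.25 percent) and 0 with Sibjeondaebo-tang (6 percent), Poria (6.2 percent) and Ginseng (4.07 percent). The background called higher was 0.00608 percent for Palmul-tang, Sibjeondaebo-tang and Atractylodes and 0 percent for Poria and Ginseng.

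Atractylodes at 500 µg/mL was next in the number of transporters that rose over its 20 µg/mL dose, with 5 of 9 called higher, against 1.93 percent of all genes. SLC38A4 was at 5.02, 5.55 and 6.31 CPM at the high and 2.63, 2.82 and 3.13 CPM at the low dose, a log2 fold change of 0.98 (SE 0.16, edgeR adjusted p = 3.57e-05). SLC7A5 rose by 0.27 (log2, SE 0.05), SLC3A2 by 0.26 (SE 0.06), SLC1A5 by 0.20 (SE 0.05) and SLC7A1 by 0.18 (SE 0.05). All 5 had separate groups, which 10.4 percent of all genes had in this direction, while SLC6A9, SLC38A2, SLC1A4 and SLC43A1 overlapped between doses, with log2 differences from -0.05 to 0.04. The calls of SLC1A5 and SLC7A1 depended on single libraries: 3 genes were called without replicate 1 of the high dose or replicate 3 of the low dose, and 3 when the 6 libraries were fitted alone. SLC7A1 was also lost without replicate 3 of the high dose (edgeR adjusted p = 0.0517) or replicate 2 of the low dose (0.0777).

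Ginseng at 500 µg/mL raised SLC38A4 and SLC3A2 over its 20 µg/mL dose, 2 of 9 against 1.29 percent of all genes called higher. SLC38A4 was at 4.53, 5.05 and 4.92 CPM against 2.24, 3.47 and 2.96 CPM (log2 fold change 0.75, SE 0.17, edgeR adjusted p = 0.00596). SLC3A2 was at 163, 155 and 148 CPM against 138, 138 and 131 CPM (log2 fold change 0.20, SE 0.06, edgeR adjusted p = 0.0473). The libraries of 4 of the 9 did not overlap, higher at the high dose, against 7.73 percent of all genes. Those of 2, SLC1A4 and SLC6A9, did not overlap in the lower direction, against 7.93 percent, and neither was called. SLC1A4 was at 9.90 to 11.1 CPM against 12.3 to 12.5 CPM (log2 difference -0.24, SE 0.08, edgeR adjusted p = 0.0834). SLC6A9 was at 0.629 to 0.706 CPM against 0.761 to 1.02 CPM. Without replicate 1 of the low dose, or with the 6 libraries alone, 0 of the 9 were called. Leaving out replicate 1 or 2 of the high dose, or replicate 2 or 3 of the low dose, left 1 call, SLC38A4.

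Poria at 500 µg/mL raised the 2 chains of LAT1 over 20 µg/mL, 2 of 9 against 1.02 percent of all genes called higher. SLC3A2 was at 189, 177 and 184 CPM against 144, 137 and 146 CPM, a log2 fold change of 0.36 (SE 0.06, edgeR adjusted p = 2.20e-05). SLC7A5 was at 364, 349 and 335 CPM against 325, 300 and 299 CPM (log2 fold change 0.18, SE 0.05, edgeR adjusted p = 0.0341). The SLC7A5 call was lost, leaving 1, without replicate 1 or 2 of the high dose or replicate 2 or 3 of the low dose, and with the 6 libraries alone. SLC38A4 lay at 3.22 to 3.42 CPM at the high Poria dose, where Atractylodes reached 5.02 to 6.31 CPM. At 500 µg/mL, in the same set, SLC38A4 was lower with Poria than with Atractylodes (log2 difference -0.77, SE 0.15, edgeR adjusted p = 0.00262), the 1 member called in that comparison, where 0.444 percent of all genes were called lower. The difference between the 2 dose effects on SLC38A4 was -0.88 (95 percent interval -1.35 to -0.41, edgeR adjusted p = 0.17), and 0 of 9 were called in that test (0.158 percent of all genes), with 1 at an unadjusted p below 0.05 and 0 by DESeq2.

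The 2 decoctions showed no called change between doses in any of the 9. With Palmul-tang 0.103 percent and with Sibjeondaebo-tang 0.195 percent of all genes were called higher by edgeR. At an unadjusted p below 0.05 there were 0 members with Palmul-tang (6.58 percent of all genes) and 2 with Sibjeondaebo-tang (SLC3A2 and SLC1A5; 11 percent of all genes), and DESeq2 called 0 with either. SLC3A2 had log2 differences of 0.11 (95 percent interval -0.00 to 0.22) and 0.14 (0.03 to 0.25). At 500 µg/mL the decoctions were compared with each other, and 0 of the 9 were called by edgeR or DESeq2, with 0 at an unadjusted p below 0.05 and 0 percent of all genes called. The 95 percent interval of SLC7A5 in that comparison was -0.11 to 0.09 and that of SLC6A9 -0.74 to 0.45. The plot of dose effects sets the 6 extracts side by side.

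**Figure D2:**
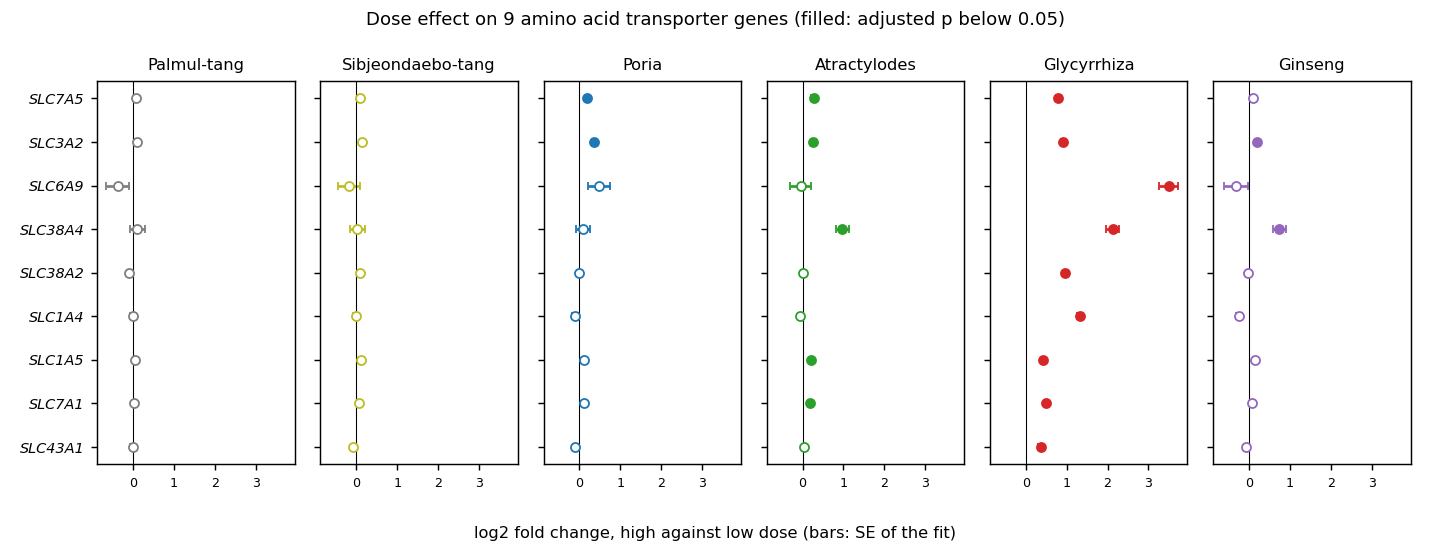
Each panel plots the log2 fold change of the high against the low dose for the 9 genes with one extract, bars giving the standard error and filled points an adjusted p below 0.05. The 9 filled points of Glycyrrhiza span 0.36 to 3.50, and the called values of the other extracts stay at 0.98 or below.

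The dose effects differed between extracts for all 9 genes when the 6 extracts were tested together by edgeR, against 12.4 percent of all genes. Glycyrrhiza and Ginseng belong to the same set, though at different doses (350 over 14 against 500 over 20 µg/mL). The dose effect was larger with Glycyrrhiza for 9 of 9, against 8.08 percent of all genes called higher, with differences from 0.27 for SLC1A5 to 3.82 for SLC6A9. The smallest of these, SLC1A5, had an edgeR adjusted p of 0.00405. Angelica, with 1 library per dose, showed SLC38A4 at 2.90, 2.38 and 7.32 CPM at the low, medium and high dose, and this gene alone of the 9 passed a 1.5-fold rise, against 3.27 percent of all genes. The other 8 differed by -0.07 to 0.19 on the log2 scale.

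Set against vehicle, the treated groups differed already at the low dose in SLC3A2 and SLC7A1. These comparisons share the same 3 vehicle libraries, in which SLC3A2 was at 127, 122 and 103 CPM and SLC7A1 at 688, 714 and 653 CPM. SLC3A2 was called higher with 6 of 6 extracts at each of the low, medium and high dose, with log2 differences of 0.21 (Ginseng) to 0.37 (Palmul-tang) at the low dose. SLC7A1 was called lower with 6 extracts at the low and 5 at the medium dose. At the high dose it was called lower with Palmul-tang (log2 difference -0.15), a call that was lost without vehicle replicate 1 or 2 or Palmul-tang replicate 2 or 3 (edgeR adjusted p of 0.0604 to 0.155) and with the mitochondrial covariate (0.0536). With Sibjeondaebo-tang it was not called at the high dose (edgeR adjusted p = 0.0535), but was called lower by DESeq2 (0.0432), with the replicate block (0.00979) and without vehicle replicate 3 (0.0374). Of all genes at the low dose, 10.8 percent were called higher and 9.67 percent lower with Palmul-tang, 10.8 and 9.26 with Sibjeondaebo-tang, 10.1 and 8.42 with Poria, 11.6 and 10.8 with Atractylodes, 9.31 and 8.27 with Glycyrrhiza and 6.91 and 6.06 with Ginseng. At the medium dose these shares were 11 and 10.2 percent, 11.2 and 8.9, 10.9 and 9.64, 11.3 and 9.44, 7.58 and 5.52, and 5.99 and 4.13 in the same order. SLC1A5 was called higher with 3, 6 and 6 extracts and SLC38A2 with 4, 2 and 5 at the low, medium and high dose. With the mitochondrial share, described below, as a covariate, the high-dose SLC38A2 call was left with 1 extract, Glycyrrhiza, and was lost with Palmul-tang (edgeR adjusted p = 0.351), Sibjeondaebo-tang (0.0781), Poria (0.485) and Atractylodes (0.0564).

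At the high dose against vehicle, Glycyrrhiza had 9 of 9 called higher, where 18.8 percent of all genes were. SLC6A9 had a log2 difference of 3.36, SLC38A4 of 2.03, SLC3A2 of 1.15 and SLC38A2 of 1.04, and SLC1A4 was 2.46-fold higher. SLC7A1, at 791 to 825 CPM, was the one member called in opposite directions against vehicle at the 2 Glycyrrhiza doses, with a log2 difference of 0.24 at the high and -0.26 at the low dose. For the other extracts edgeR called 3 higher and 1 lower with Palmul-tang (11.7 and 9.95 percent of all genes), and 3 higher with Sibjeondaebo-tang (14.2 percent). It called 4 higher with Poria (13.4 percent), 6 with Atractylodes (11.9 percent) and 3 with Ginseng (10.3 percent). Leaving out each library in turn gave 4 to 5 calls with Atractylodes, SLC43A1 being lost each time and also without the filter and with the 6 libraries alone. It gave 3 to 4 calls with Poria, where SLC38A2 was lost in 5 of 6 cases. With Atractylodes, SLC7A5 was lost without vehicle replicate 2 or 3 or high-dose replicate 1 or 3 (edgeR adjusted p of 0.0511 to 0.166). The mitochondrial covariate also ended that SLC7A5 call (0.179). The share of reads from 13 mitochondrial protein genes moved with this contrast. It was 8.71 ± 1.19 percent with vehicle (SD, n = 3) and 5.59 to 7.40 percent on average in the treated groups of 3 libraries. Its part in the vehicle differences was tested only as a covariate, which left 2 calls with Palmul-tang, 2 with Sibjeondaebo-tang, 3 with Poria, 3 with Atractylodes and 9 with Glycyrrhiza. Between the Glycyrrhiza doses that share was alike, 6.33 ± 0.42 percent at the high and 6.26 ± 0.51 percent at the low dose.

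**Figure D3:**
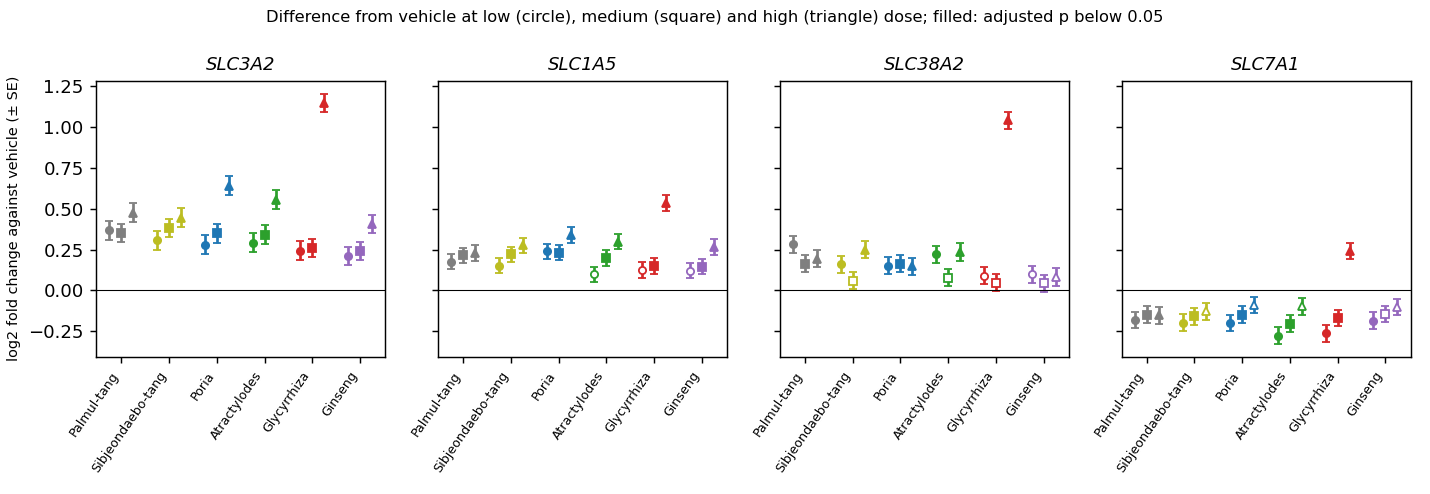
Panels plot the log2 difference from vehicle with its standard error for single transporter genes, by extract, with circles, squares and triangles for the low, medium and high dose and filled points for an adjusted p below 0.05. SLC3A2 points are filled and above 0 at all 18 extract doses, and SLC7A1 points lie below 0 except at the high Glycyrrhiza dose.

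Other genes of amino acid handling were read from lists chosen with earlier results of these data known. Of 43 further amino acid transporters, 25 passed the filter on low counts, and at the high Glycyrrhiza dose 7 were called higher and 7 lower (median log2 fold change 0.04), beside 14 percent of all genes higher and 10.9 percent lower. SLC7A11, the cystine-glutamate exchanger that pairs with SLC3A2, rose from 126 to 429 CPM (log2 fold change 1.77, SE 0.07, edgeR adjusted p = 5.30e-26). SLC6A14 and SLC3A1 fell, by 1.86 and 1.43 on the log2 scale, from means of 0.445 and 2.56 CPM. SLC7A11 was also called higher with Atractylodes (0.71), Poria (0.64), Ginseng (0.49) and Sibjeondaebo-tang (0.43). SLC38A5 was called higher with Poria (0.20). In the other direction, SLC6A20 was called lower with Atractylodes (-0.86) and Ginseng (-0.60). SLC38A11 was called lower with Poria (-0.53), Atractylodes (-0.51) and Ginseng (-0.37).

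Of 25 amino acid response genes, 23 were tested and 21 were called higher at the high Glycyrrhiza dose, with a median log2 fold change of 1.06. CHAC1, which degrades glutathione, rose by 2.69 (log2, SE 0.13), ASNS, the asparagine synthetase, by 1.97 (SE 0.05) and NUPR1, a stress-induced chromatin protein, by 1.95 (SE 0.36). ATF5 fell by 0.51 and ALDH18A1 was not called; both were singled out after their values were seen. Of 18 cytosolic tRNA synthetases, 12 were called higher (WARS1 0.93, SARS1 0.75, GARS1 0.73) and 1, VARS1, lower (-0.10, named after its value was seen). Of 19 tested genes of amino acid sensing, 3 were called higher and 3 lower, near the shares of all genes (14 and 10.9 percent). The largest changes among them were in SESN1 (-0.83), EIF2AK3, an eIF2 kinase (0.70), and SESN3 (-0.64). With Atractylodes 1 response gene was called higher, ASNS (0.26), with Poria 3 (TRIB3 0.25, ASNS 0.24 and PSAT1 0.21) and with Ginseng 0. For these 3 extracts the called sensing genes of largest change, up to 3 per extract, were all lower. With Atractylodes they were RRAGC (-0.28), SESN1 (-0.22) and EIF2AK4 (-0.14), and with Ginseng SESN1 (-0.37), RRAGC (-0.31) and EIF2AK4 (-0.16). The one with Poria was SESN3 (-0.54).

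**Figure D4:**
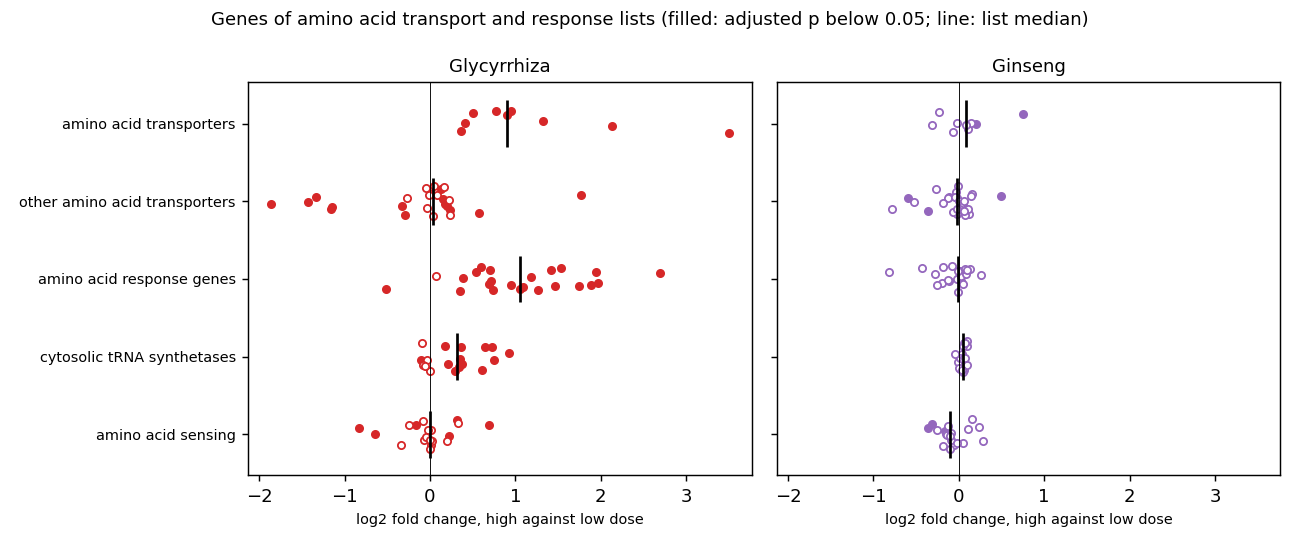
Points plot the log2 fold change of the high against the low dose with Glycyrrhiza and with Ginseng, the only extracts drawn. Each point is a tested gene of the transporter, response, tRNA synthetase and sensing lists. A line marks the list median, and filled points have an adjusted p below 0.05. With Glycyrrhiza the medians of the 9 transporters (0.91) and of the response genes (1.06) lie right of the median of the further transporters (0.04).

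The genes whose dose pattern was most like that of SLC7A5 were ranked among 10689 genes of at least 5 CPM, by Pearson's r over 12 values, the high-minus-low and medium-minus-low differences of 6 extracts. SLC7A1, itself a member, came first (r = 0.99), followed by XPOT, a tRNA exporter (0.98), ASNS (0.98), CANX, an endoplasmic reticulum chaperone (0.98), and IDS, a lysosomal sulfatase (0.98). The other members had r from 0.85 (SLC43A1) to 0.96 (SLC3A2). Their ranks among the 10689 genes were 39 for SLC3A2, 112 for SLC1A5, 123 for SLC38A2, 262 for SLC1A4 and 641 for SLC43A1. SLC6A9 and SLC38A4 lay below 5 CPM on average and were not ranked. The 12 values share each extract's low-dose libraries, and 1 of them, the high Glycyrrhiza dose, lies far from the rest. Without both Glycyrrhiza values, an alternative added after the data were seen, r over 10 values was 0.94 for SLC7A1, 0.85 for SLC1A5 and 0.81 for SLC3A2. It was 0.72 for SLC38A4, 0.51 for SLC6A9, 0.31 for SLC38A2, 0.29 for SLC43A1 and -0.11 for SLC1A4, and among the nearest genes 0.84 for XPOT, 0.81 for ASNS, 0.75 for CANX and 0.81 for IDS.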

How the data were processed

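Libraries were made with a directional mRNA kit and sequenced as paired ends, per the labels' protocols. Values in the authors' deposited table are expected counts by Ensembl gene identifier; the submitters' processing notes list Trim Galore 0.6.5, STAR 2.7.3a and RSEM 1.3.3, with GRCh38. Use of strand and the annotation release are not stated there. Another 213 sample columns were not used. Positive controls named in the series text were not analysed here.

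Expected counts were rounded and tested with edgeR 4.0.16 (quasi-likelihood, TMM factors, filterByExpr, Benjamini-Hochberg over 16445 genes within each comparison). One fit held 57 libraries in 19 groups; Angelica was left out of it. CPM used TMM factors, except for the cell type markers, and exon lengths and positions came from GENCODE 29. Alternatives were DESeq2 1.42.0, its size factors, no filter, a fit of the 6 libraries compared, a replicate block, a mitochondrial covariate and each library left out. The script was tested on simulated data. Named genes were the 9 members and, per list and extract, up to 3 called genes of largest change. Members and lists were chosen with earlier results of these data known.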

Additional observations from a re-analysis of the deposited data

Results flagged for a closer look

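The dose effect (high against low) differed between Glycyrrhiza and Ginseng, 2 extracts whose sample codes share their first number, by a test of the difference itself in all 9 genes (edgeR, adjusted over all genes). The doses differ, 350 over 14 against 500 over 20 µg/mL, so potency per dose and kind of extract cannot be told apart. The difference in log2 fold change was 3.82 for SLC6A9, 1.56 for SLC1A4, 1.38 for SLC38A4, 0.967 for SLC38A2 and 0.71 for SLC3A2. It was 0.672 for SLC7A5, 0.432 for SLC43A1, 0.42 for SLC7A1 and 0.266 for SLC1A5.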

How the results depend on the processing

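All 9 transporters were called higher at the high Glycyrrhiza dose, against the low dose and against vehicle, under every alternative run. Alternatives were made for 108 fold changes (9 genes, 6 extracts, high dose against low dose or vehicle). With only the 6 libraries compared, 1 gene was called with Poria, 3 with Atractylodes and 0 with Ginseng, where fewer libraries estimate the spread. With the mitochondrial share as a covariate, 2 were called with Palmul-tang, 2 with Sibjeondaebo-tang, 3 with Poria and 3 with Atractylodes against vehicle (7 calls lost). Without the filter on low counts, the dose effects of Poria and Atractylodes differed in 1 gene; the cause was not tested. Leaving out each library gave 1 to 2 calls with Poria, 3 to 5 with Atractylodes and 0 to 2 with Ginseng (high against low dose). Against vehicle it gave 3 to 4 with Palmul-tang, Sibjeondaebo-tang and Poria, 4 to 5 with Atractylodes and 3 with Ginseng. RLE size factors changed no call or direction among the 108. Replicate numbers did not pair the libraries: correlations of same-numbered deviations ran from -0.11 to 0.19, though in Sibjeondaebo-tang and Ginseng 3 of 3 high-dose libraries correlated best with their own number. With the replicate block, 3 genes were called with Ginseng (high against low dose) and 4 with Sibjeondaebo-tang against vehicle; the other counts were the same.

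Of 1239 alternative values, 37 changed sign, in 20 of the 108 fold changes, and in all 37 neither value was called. With the covariate the log2 difference from vehicle became 0.23 for SLC6A9 and 0.16 for SLC38A4 with Palmul-tang, 0.34, 0.0749 and 0.00931 for SLC6A9, SLC38A4 and SLC43A1 with Sibjeondaebo-tang, and 0.0352 for SLC6A9 with Ginseng. Without the filter SLC38A2 with Poria became 0.0108. Leaving out each library, the dose effects of SLC1A4 and SLC43A1 with Palmul-tang ran from -0.0358 to 0.0480 and -0.0441 to 0.0201. With Sibjeondaebo-tang SLC6A9, SLC38A4 and SLC1A4 ran from -0.378 to 0.203, -0.0504 to 0.0866 and -0.0974 to 0.0478. SLC38A2 ran from -0.0378 to 0.0375 with Poria and -0.0467 to 0.0388 with Ginseng. With Atractylodes SLC6A9, SLC38A2 and SLC1A4 ran from -0.252 to 0.202, -0.0161 to 0.0547 and -0.110 to 0.00858. Against vehicle, SLC38A4 and SLC1A4 ran from -0.271 to 0.135 and -0.00275 to 0.0867 with Palmul-tang and from -0.348 to 0.0580 and -0.0598 to 0.0874 with Sibjeondaebo-tang. SLC38A4 ran from -0.0209 to 0.388 with Poria, and SLC6A9 from -0.0993 to 0.268 with Atractylodes. The low counts of SLC6A9 limit the precision of its values outside the high Glycyrrhiza dose.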
